A study of Saccharomyces cerevisiae with 10 samples.

Results

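The genes described here encode the proteins of the cytosolic ribosome of budding yeast, and the mRNA of 127 of them was followed after a transfer of the cells from glucose to ethanol. They were chosen by name: a probe set had to carry a gene symbol made of RPL or RPS and a number, with or without a final A or B, or one of RPP0, RPP1A, RPP1B, RPP2A and RPP2B. Where a gene had more than 1 probe set, the brightest was kept. For 25 of the 127 genes that probe set is one whose name marks it as shared, meaning that its probes can read more than 1 transcript, for example that of a paralog. The 127 were drawn from 5449 genes measured, and 70 encode proteins of the large (60S) subunit, 52 of the small (40S) subunit and 5 of the stalk, the P0, P1 and P2 proteins of the 60S subunit. Some ribosomal protein genes are not analysed here.

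The RNA came from a pool of barcoded diploid strains, each of which carries a pair of proteins fused to fragments of a methotrexate-resistant dihydrofolate reductase, so that strains whose fusion proteins bind each other can grow in methotrexate. According to the labels the pool was grown at 30 °C in minimal medium with 2% dextrose and then moved to minimal medium with 2% ethanol and methotrexate, and all 10 samples come from this 1 culture design. Cells were taken at 0 h, 0.5 h, 1 h, 4 h and 12 h after the transfer, with 2 biological replicates at each time and 1 array for each. The sources differ on whether the culture before the transfer already held methotrexate, so a difference from 0 h cannot be told apart from an effect of the start of methotrexate. They do not say whether the replicates were grown separately, so the p-values measure the spread between these arrays. In a pool, a change in the strains present and a change within each cell cannot be told apart, and the array values are relative to the other mRNAs of the sample.

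Each ribosome holds 1 copy of most of its proteins, and in yeast most of these proteins are encoded by a pair of near-identical genes, the A and B paralogs, that arose in a duplication of the whole genome. Ribosomal protein genes are among the most strongly transcribed of a growing cell. Their promoters bind Rap1, or in some cases Abf1, together with Fhl1 and its coactivator Ifh1, and the TOR and protein kinase A pathways tie their transcription to nutrients. Yeast is well known for lowering these mRNAs within minutes of losing its preferred sugar.

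The arrays had median intensities between 316 and 351, and replicate arrays correlated across genes at r = 0.977 to 0.985. Intensity is the linear value the authors obtained with the RMA procedure, and fold changes are given on the log2 scale, where −1 is a fall by a factor of 2, with the standard error of a limma fit. A gene was called changed at a Benjamini-Hochberg adjusted p under 0.05 over all 5449 genes. 5 genes of ethanol use, ADH2, PCK1, ICL1, ACS1 and ADY2, were called higher at each of the 4 later times, with a median log2 fold change of 5.35 at 0.5 h. 12 haploid-specific genes, which diploid cells repress, were dim when averaged over all arrays, with mean levels above 3.21 to 16.0% of genes. The brightest of them at 0 h were STE2, with intensities of 254 and 276, and MFA1, with 277 and 172. Of the 12, 7 were called lower and 1 higher at 0.5 h, where 32.7% of all genes were lower and 30.1% higher. At 12 h 7 were lower and none higher (22% and 21.4% of all genes). The cause of these falls was not tested. At 0 h the ribosomal protein genes were bright, with a median rank above 96.8% of genes, and RPS22B, RPS9A and RPL41A were the only 3 dimmer than the median gene, which limits their precision.

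Ribosomal protein mRNA fell almost as a block within 0.5 h and had mostly returned by 4 h. At 0.5 h 122 of 127 genes were called lower and none higher, where 32.7% of all genes measured were called lower and 30.1% higher. The median log2 fold change of the 127 genes was −1.30, against −0.05 for all genes, and all 127 values were below 0. At 1 h 119 were called lower and none higher (33.4% and 29.3% of all genes), with a median of −0.95. At 4 h 12 were lower and 4 higher, where 23.2% of all genes were lower and 19.4% higher, and the median had come back to −0.20. At 12 h 4 were lower and 4 higher (22% and 21.4% of all genes), with a median of −0.10. After quantile normalization the split at 12 h was 9 lower and 4 higher, and after median centring of the arrays 6 and 4. These comparisons share the 0 h arrays.

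**Figure D1:**
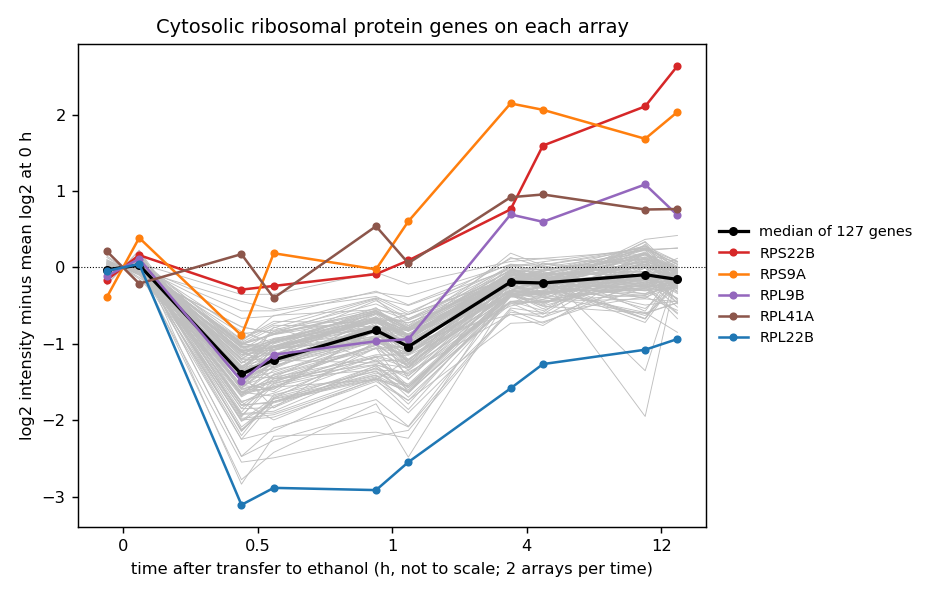
Change of each of 127 ribosomal protein genes on each of 10 arrays: the vertical axis is log2 intensity minus the gene's mean log2 at 0 h, the horizontal axis is time after transfer with 2 arrays per time, grey lines are single genes, the black line is their median and 5 genes are coloured. The median lies at −1.40 and −1.21 on the 0.5 h arrays and at −0.10 and −0.16 on the 12 h arrays, while RPS22B, RPS9A, RPL9B and RPL41A end above 0 and RPL22B ends near −1.

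The return was tested directly as differences between later times. The 0 h arrays do not enter these differences, but they do enter the pooled spread behind the p-values. From 0.5 h to 12 h 123 of the 127 genes were called higher and none lower, where 24.6% of all genes were called higher and 23% lower. Most of it lay between 1 h and 4 h, when 113 genes were called higher and none lower (14.5% and 12.8% of all genes). Between 4 h and 12 h only RPS22B was called, as higher (6.83% of all genes were higher and 4.5% lower). Between 0.5 h and 1 h no gene at all passed the limma threshold (0% of all genes), although 125 of 127 values were above 0 with a median of 0.34 and 40 of them had an unadjusted p under 0.05. Among the 122 genes called lower at 0.5 h, the median gene had regained 83.8% of its log2 fall by 4 h, and 120 had regained at least 50%. The other two were RPS7B at 48.1% and RPL9A at 48.6%, and the highest was RPL9B at 149%. These shares use the 0 h and 0.5 h arrays that chose the 122 genes and are a description.

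The subunits of the ribosome moved together. At 0.5 h 69 of 70 genes for 60S proteins were called lower, with a median of −1.31, and 48 of 52 genes for 40S proteins, with a median of −1.17, against 32.7% of all genes. In each of the 6 arrays from 0.5 h to 4 h the 60S median was below the 40S median. On the 0.5 h arrays it was −1.42 and −1.24 for 60S genes and −1.32 and −1.15 for 40S genes, so the gap between subunits was smaller than that between the replicate arrays. At 12 h the order was mixed, with 60S medians of 0.00 and −0.16 and 40S medians of −0.12 and −0.11. The spread among genes of a subunit was far wider than the gap between the subunits, with an SD of 0.46 for 60S and 0.51 for 40S genes at 0.5 h. No test was made between the subunits.

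**Figure D2:**
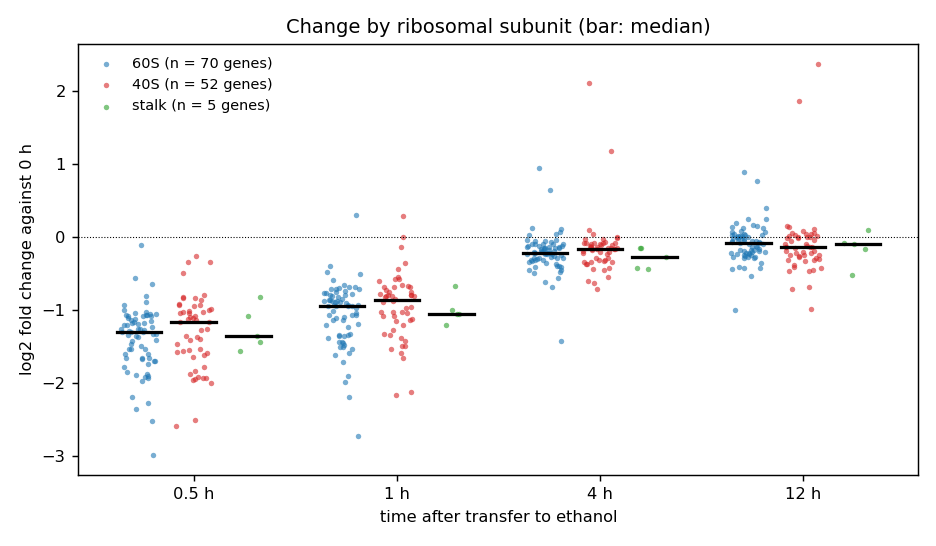
Log2 fold change against 0 h (vertical axis) of 70 genes for 60S proteins, 52 for 40S proteins and 5 for the stalk at 4 later times (horizontal axis), with a point for each gene and a black bar at the median. The 3 medians lie between −1.36 and −1.17 at 0.5 h and between −0.27 and −0.17 at 4 h, and the genes far above the rest at 4 h and 12 h are few.

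The stalk is the arm of the 60S subunit that recruits and activates translation factors, with P0 as its base and P1 and P2 proteins as a pair of dimers on it. All 5 of its genes were called lower at 0.5 h, as were 32.7% of all genes. RPP0 had intensities of 5364 and 5173 at 0 h, 1880.0 and 2232 at 0.5 h, 2922 and 2176 at 1 h, then 4184 and 3620.2 at 4 h and 5520.3 and 4357 at 12 h. Both 0.5 h arrays lay below all others apart from the 1 h arrays, and the change at 0.5 h was −1.36 ± 0.20 (adjusted p = 2.8e-04). RPP2A, for a P2 protein, fell by 1.57 at 0.5 h and RPP1B, for a P1 protein, by 1.44, while RPP2B and RPP1A fell by 1.09 and 0.82. None of the 5 was called at 4 h or 12 h. At 12 h the value furthest from 0 was that of RPP2B, at −0.53 ± 0.20 (adjusted p = 0.061), from intensities of 4772 and 4869 at 0 h and 3187 and 3509 at 12 h.

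3 genes encode a ribosomal protein fused to ubiquitin, the tag for protein degradation, which is cut off after translation. RPL40A and RPL40B carry the 60S protein eL40 and RPS31 the 40S protein eS31. RPL40A went from 4701 and 4724 at 0 h to 2971 and 3035 at 0.5 h, a change of −0.65 ± 0.15 (adjusted p = 0.0037). RPL40B fell further, by 1.31 from 2128 and 2681 at 0 h to 905 and 1028 at 0.5 h, and RPS31 by 1.13 from 6129.6 and 5658 at 0 h to 2716 and 2682 at 0.5 h. The 3 genes were not called at 4 h or at 12 h.

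The deepest fall belonged to RPL22B (YFL034C-A), which encodes the 60S protein eL22. Its intensities were 2418 and 2573 at 0 h, 290.1 and 338 at 0.5 h, 332 and 427 at 1 h, then 834 and 1039 at 4 h and 1183 and 1304 at 12 h. Every later array was below both 0 h arrays, and the log2 fold changes were −2.99 ± 0.19, −2.73 ± 0.19, −1.42 ± 0.19 and −1.01 ± 0.19 at 0.5, 1, 4 and 12 h, with adjusted p of 3.8e-06, 5.6e-06, 3.5e-04 and 0.0022. It was also the lowest of the 127 genes at 1, 4 and 12 h. After RPL22B the largest falls at 0.5 h were those of RPS26B (−2.60), whose 40S protein eS26 sits at the mRNA exit channel, RPL8A (−2.52), RPS22A (−2.52), RPL13A (−2.37) and RPL17B (−2.28), the last for a protein that lines the exit tunnel for the nascent chain. RPS26B went from 2868 and 2933 at 0 h to 424 and 543 at 0.5 h. RPL8A went from 3780.0 and 4631 at 0 h to 587 and 906 at 0.5 h, and RPL13A from 1623 and 1904 at 0 h to 317 and 367 at 0.5 h. In each of the 5 both 0.5 h arrays lay far below both 0 h arrays, and at 12 h none of the 5 was called.

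5 of the 127 genes were not called lower at 0.5 h: RPS22B, RPS9A, RPL41A, RPS30A and RPS17B. RPS22B (YLR367W), for the 40S protein uS8, had intensities of 276 and 345 at 0 h, 252 and 261 at 0.5 h, 290.4 and 329 at 1 h, then 522 and 931 at 4 h and 1329 and 1917 at 12 h. The 0.5 h and 1 h arrays lay within or just below the range of the 0 h arrays, and all 4 arrays of 4 h and 12 h lay above it. The log2 fold change was −0.27 ± 0.28 (adjusted p = 0.43) at 0.5 h, 1.18 ± 0.28 (adjusted p = 0.0085) at 4 h and 2.37 ± 0.28 (adjusted p = 1.7e-04) at 12 h, the largest rise among the 127 genes at that time. The call at 4 h was lost without the first 0 h array (1.02, adjusted p = 0.058) and without the second 4 h array (0.76, adjusted p = 0.066), and that at 12 h was kept without any 1 array.

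RPS9A (YPL081W), for the 40S protein uS4, had intensities of 219 and 374 at 0 h, 154 and 325 at 0.5 h, 281 and 434 at 1 h, then 1265 and 1194 at 4 h and 918 and 1171 at 12 h. Its replicates were far apart at 0 h and 0.5 h, and the 4 arrays of 4 h and 12 h were all above the 6 earlier ones. The changes were −0.35 ± 0.37 (adjusted p = 0.437) at 0.5 h, 2.10 ± 0.37 (adjusted p = 0.002) at 4 h and 1.86 ± 0.37 (adjusted p = 0.0034) at 12 h. RPL41A, which encodes the very short 60S protein eL41, was among the dimmest of the 127, with intensities of 143 and 106 at 0 h, 139 and 93.4 at 0.5 h, 179 and 128 at 1 h, then 233 and 239 at 4 h and 208 and 209 at 12 h. All 4 arrays of 4 h and 12 h were above the earlier 6, with 0.94 ± 0.24 (adjusted p = 0.012) at 4 h and 0.76 ± 0.24 (adjusted p = 0.029) at 12 h. Its probe set is a shared one, and leaving out the second 0 h array lost both calls (0.72 with adjusted p = 0.091 at 4 h, and 0.55 with adjusted p = 0.18 at 12 h). The call at 4 h was also lost without the second 4 h array (adjusted p = 0.060) and that at 12 h without either 12 h array (adjusted p = 0.086 and 0.089).

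RPS30A and RPS17B are also read by shared probe sets. RPS30A, for the 40S protein eS30, moved less than most, from 3308 and 3556 at 0 h to 2683 and 2691 at 0.5 h, a change of −0.35 ± 0.14 (adjusted p = 0.054). Both 0.5 h arrays lay below both 0 h arrays, and 6 of the alternative fits called the fall, at adjusted p from 0.017 to 0.048. RPS17B, for the 40S protein eS17, had intensities of 3196 and 3570.4 at 0 h, 1624 and 1773 at 0.5 h, 2098 and 2094 at 1 h, then 2999 and 3072 at 4 h and 875 and 3309 at 12 h. Its 0.5 h and 1 h arrays all lay below those of 0 h, and the replicates of 12 h were further apart than at any other time. The change at 0.5 h was −0.99 ± 0.47 (adjusted p = 0.089), and without either of the 12 h arrays it was called with the same value (adjusted p = 0.0004). RPS24A also had a low first array at 12 h, with 1608 and 3994 at 12 h against 4000.0 and 4201 at 0 h. These 2 genes and RPS9A at 0.5 h were the only 3 whose replicates differed by more than 1 on the log2 scale.

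RPL9B (YNL067W), for the 60S protein uL6, first fell with the rest and then rose past its starting level. Its intensities were 1108 and 1294 at 0 h, 428 and 543 at 0.5 h, 613 and 624 at 1 h, then 1935 and 1811 at 4 h and 2540.4 and 1923 at 12 h. The 4 arrays of 0.5 h and 1 h were below both 0 h arrays, and the 4 arrays of 4 h and 12 h were above them. The changes were −1.31 ± 0.19 (adjusted p = 2.6e-04) at 0.5 h, 0.64 ± 0.19 (adjusted p = 0.023) at 4 h and 0.88 ± 0.19 (adjusted p = 0.0047) at 12 h. The call at 4 h was lost without the first 0 h array (0.53, adjusted p = 0.12) and without either 4 h array (0.60 and 0.69, adjusted p = 0.096 and 0.074), and that at 12 h was kept in every such fit. On the kept probe sets RPS22B, RPS9A, RPL9B and RPL41A were the 4 genes called higher at 4 h and again the 4 called higher at 12 h. Of all genes 19.4% and 21.4% were called higher at these times. A probe set of RPL18B that was not kept also rose, by 1.19 at 4 h and 1.56 at 12 h (adjusted p = 0.0018 and 3.2e-04).

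Of the ribosomal protein genes 12, or 9.45%, were still called lower at 4 h, a smaller share than the 23.2% of all genes. The 6 furthest below were RPL22B, RPS28B (−0.72), RPL9A (−0.69), RPS22A (−0.64), RPL22A (−0.62) and RPS7B (−0.61). RPS28B, for a 40S protein at the mRNA exit channel, had 1758 and 1779.7 at 4 h against 2597 and 3274 at 0 h, and RPL9A had 1459 and 1320.0 at 4 h against 2210.0 and 2261 at 0 h. RPL22A went from 3355 and 3269.6 at 0 h through 697 and 752 at 0.5 h to 2209.7 and 2112 at 4 h and 3517 and 2759.9 at 12 h. The other 6 were RPS21A, RPL15A, RPL3, RPL11A, RPL4B and RPL14A, with values between −0.56 and −0.41. The count depended on single arrays: it was 12 lower and 4 higher with all arrays, and the sum of 16 became 6, 5, 6 and 2 without the first 0 h, second 0 h, first 4 h and second 4 h array. Among the 6 genes named first, the calls of RPL22A, RPL9A, RPS28B and RPS7B were each lost in 3 or 4 of these fits and that of RPS22A in 2, while RPL22B kept its call in all.

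At 12 h 4 of the 127 genes were called lower, where 22% of all genes were lower: RPL22B, RPS14B, RPL4B and RPS7B. RPS14B, for the 40S protein uS11, had intensities of 1389 and 1884 at 0 h, 533 and 536 at 0.5 h, 916 and 680.3 at 1 h, then 1279.6 and 1308 at 4 h and 1075 and 898 at 12 h. The 12 h arrays lay below the 4 h arrays as well as the 0 h arrays, and the change was −0.72 ± 0.20 (adjusted p = 0.018). RPL4B, for a protein of the exit tunnel, had 1582 and 1742 at 12 h against 2404 and 2399 at 0 h, a change of −0.53 ± 0.15 (adjusted p = 0.016). RPS7B, for the 40S protein eS7, had 1737 and 1535 at 12 h against 2029 and 2527 at 0 h, a change of −0.47 ± 0.17 (adjusted p = 0.048). Leaving out the second 0 h array lost the calls of RPS14B (−0.50, adjusted p = 0.13), RPL4B (−0.53, adjusted p = 0.061) and RPS7B (−0.31, adjusted p = 0.26), and RPS7B was lost without any 1 of 9 of the 10 arrays, with adjusted p from 0.056 to 0.26. RPL4B was also lost without the first 0 h or the first 12 h array (adjusted p = 0.058 and 0.060), and RPS14B without the second 12 h array (adjusted p = 0.095). Without the second 12 h array 13 of the 127 genes were called in place of 8, and without the second 0 h array 4.

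For 50 pairs both the A and the B gene were on the array. In 47 of these both were called lower at 0.5 h, where 32.7% of all genes were lower. The size of the fall differed in some pairs and not detectably in others, and 24 of the 50 were within 0.5 of each other on the log2 scale. Across the 50 pairs the changes of A and B had Pearson correlations of −0.02, −0.04, −0.13 and −0.11 at 0.5, 1, 4 and 12 h. The size of the change of a gene thus did not track that of its partner. The change of A and B was compared through their log2 ratio on the same array, since the levels of different probe sets cannot be set against each other. The ratio was fitted with limma over the 52 pairs of symbols on the array that end in A and B, of which 50 are ribosomal, so that the adjusted p runs almost only over ribosomal pairs. A second fit, chosen after seeing the data, ran over 670 pairs whose symbols differ in a last A or B or a last 1 or 2, which need not be paralogs. Adjusted p for pairs below are those over the 670 pairs, while the changes and standard errors beside them come from the fit over the 52.

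At 0.5 h the ratio changed in 26 of 50 pairs over the 52 pairs (53.8% of the 52). Over the 670 it changed in 24 of 50 (54.9% of the 670). The share of the 52 is no background, since 50 of them are the ribosomal pairs. At 1 h the ratio changed in 20 pairs (42.3%) and in 18 in the wider table (55.4%). At 4 h it changed in 4 (9.62%) and 5 (39.1%), and at 12 h in 8 (17.3%) and 6 (40.9%). Of the 620 other pairs of the wider table, 344, 353, 257 and 268 were called at 0.5, 1, 4 and 12 h. At 1, 4 and 12 h the ribosomal pairs were thus called less often than the others. The median absolute difference between A and B was 0.54, 0.39, 0.18 and 0.24 at the 4 later times in order. A lost relatively less than B in 25 pairs at 0.5 h and relatively more in 25. In 35 pairs neither probe set is marked as shared, and 18, 16, 4 and 8 of these were called over the 52 pairs at the 4 times. The counts moved with single arrays: at 0.5 h they became 15 without the first 0.5 h array and 16 without the second 0 h array, and at 1 h 11, 10 and 13 without the first 0 h, the second 0 h and the first 1 h array. At 4 h they became 2 without the first 0 h or the second 4 h array, and at 12 h 13 without the second 12 h array and between 3 and 5 without any other.

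**Figure D3:**
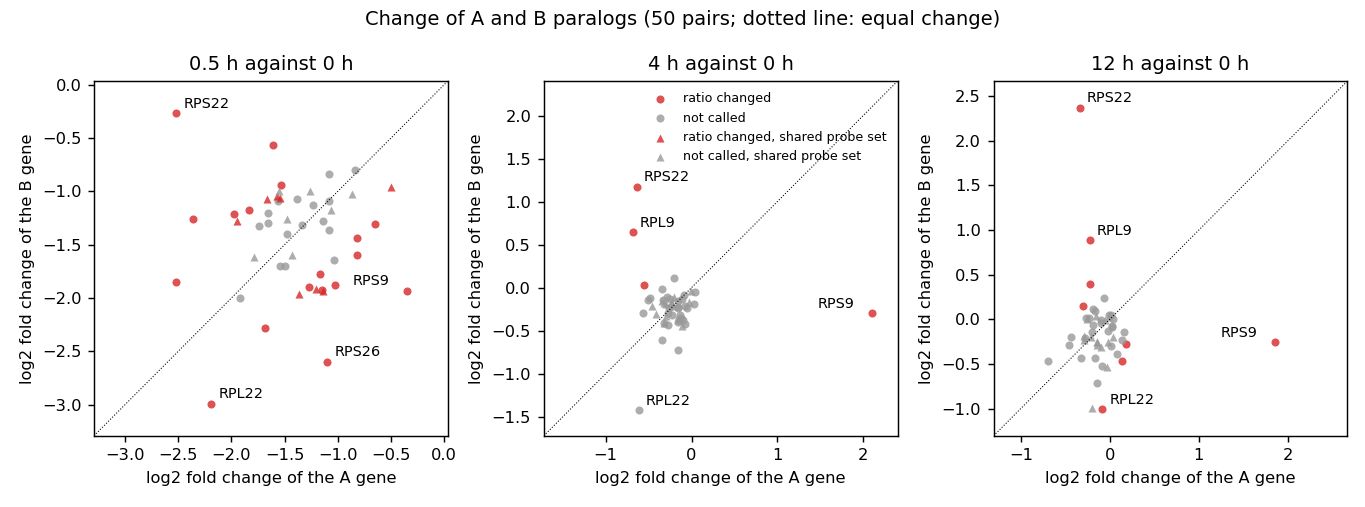
Log2 fold change of the B gene (vertical axis) against that of the A gene (horizontal axis) for 50 ribosomal paralog pairs at 0.5, 4 and 12 h against 0 h. Red marks are pairs whose ratio changed over the 52 pairs, triangles are pairs with a probe set marked as shared, and the dotted line is equal change: RPS22, RPS9 and RPL9 stand far from the line at 12 h while most pairs lie within 0.5 of it.

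RPS22 was the pair with the widest split. RPS22A (YJL190C) had intensities of 2855 and 2646 at 0 h, 470.5 and 489 at 0.5 h, 596 and 627 at 1 h, then 1874 and 1658 at 4 h and 2468 and 1919 at 12 h, so it fell with the rest, while RPS22B was not called at 0.5 h and then rose. The log2 ratio of A over B was 3.37 and 2.94 at 0 h, 0.90 and 0.91 at 0.5 h, 1.04 and 0.93 at 1 h, then 1.84 and 0.83 at 4 h and 0.89 and 0.00 at 12 h. It was lower on all 8 later arrays than on the 0 h arrays. The change of the ratio was −2.25 ± 0.36, −2.17 ± 0.36, −1.82 ± 0.36 and −2.71 ± 0.36 at 0.5, 1, 4 and 12 h, with adjusted p of 8.7e-04, 0.0011, 0.0045 and 5.1e-04.

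In RPS9 the A gene was the one that rose. RPS9B (YBR189W) had intensities of 3106 and 3839 at 0 h, 783 and 1046 at 0.5 h, 1257 and 1122 at 1 h, then 2998 and 2629 at 4 h and 2891 and 2884 at 12 h. It fell at 0.5 h and was not called at 4 h or 12 h. The log2 ratio of A over B was −3.83 and −3.36 at 0 h, −2.34 and −1.69 at 0.5 h, −2.16 and −1.37 at 1 h, then −1.24 and −1.14 at 4 h and −1.66 and −1.30 at 12 h, higher on every later array than at 0 h. Its change was 1.58 ± 0.31, 1.83 ± 0.31, 2.40 ± 0.31 and 2.12 ± 0.31, with adjusted p of 0.0028, 0.0012, 5.4e-04 and 9.7e-04.

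RPL9 split later than these. RPL9A (YGL147C) had intensities of 2210.0 and 2261 at 0 h, 961 and 813 at 0.5 h, 885 and 864 at 1 h, then 1459 and 1320.0 at 4 h and 2273 and 1607 at 12 h. The genes of this pair fell alike at 0.5 h, and by 4 h the B gene was above its 0 h level and the A gene below. The log2 ratio of A over B was 1.00 and 0.81 at 0 h, 1.17 and 0.58 at 0.5 h, 0.53 and 0.47 at 1 h, then −0.41 and −0.46 at 4 h and −0.16 and −0.26 at 12 h, with the last 4 arrays below the first 6. Its change was −0.03 ± 0.19, −0.40 ± 0.19, −1.33 ± 0.19 and −1.11 ± 0.19, with adjusted p of 0.935, 0.147, 0.0015 and 0.0036.

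**Figure D4:**
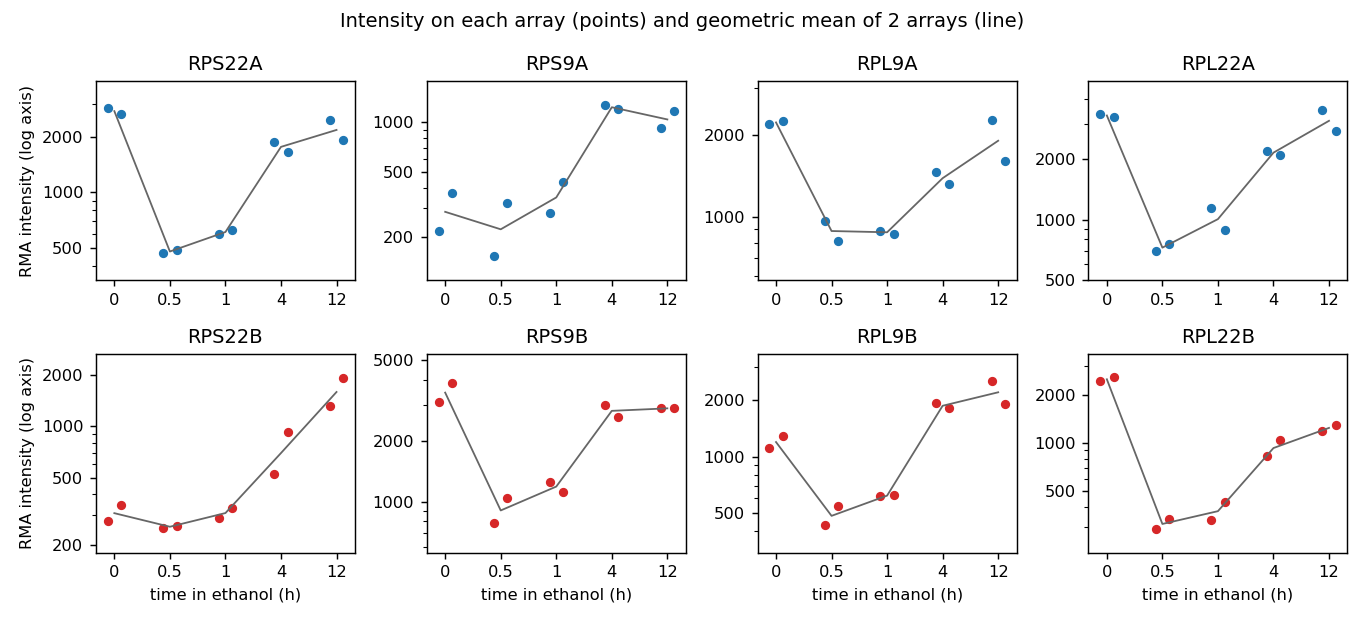
RMA intensity on a log axis (vertical, set for each gene) against time in ethanol (horizontal) for the A and B genes of RPS22, RPS9, RPL9 and RPL22; points are the 2 arrays of each time and lines their geometric mean. RPS22B reaches 1329 and 1917 and RPS9A 918 and 1171 at 12 h, above all their arrays of 0 h to 1 h, whereas RPL22B reaches at most 1304 after 0 h.

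The RPL22 and RPS26 pairs fell together and by unequal amounts. In RPL22 both genes were called lower at 0.5 h, the B gene more so. The log2 ratio of A over B rose from 0.47 and 0.35 at 0 h to between 1.02 and 1.78 on the 8 later arrays. Its change was 0.80 ± 0.26, 1.01 ± 0.26, 0.81 ± 0.26 and 0.92 ± 0.26, with adjusted p of 0.037, 0.014, 0.047 and 0.027, and with adjusted p = 0.11 at 4 h over the 52 pairs. Over the 52 pairs the call at 1 h was lost without either 0 h array or the first 1 h array, at adjusted p from 0.051 to 0.088. RPS26A went from 4448 and 4194 at 0 h to 2095 and 1940.0 at 0.5 h, a smaller fall than that of RPS26B, and the ratio changed by 1.50 ± 0.22 at 0.5 h and 1.37 ± 0.22 at 1 h (adjusted p = 8.8e-04 and 0.0014). By 4 h and 12 h the RPS26 log2 ratio was within 0.34 of its start and was not called.

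RPL13, RPL15 and RPS28 completed the 8 pairs with the largest change of ratio. RPL13A fell further than RPL13B at 0.5 h, with a ratio change of −1.10 ± 0.15 (adjusted p = 0.0012), and RPL15A further than RPL15B, with −1.04 ± 0.17 (adjusted p = 0.0021). RPL15B had 523 and 527 at 0 h, 354 and 354 at 0.5 h, 403 and 349.6 at 1 h, then 524 and 432 at 4 h and 677 and 701 at 12 h, and its 12 h arrays were above all its others, at 0.39 ± 0.16 (adjusted p = 0.069). RPS28A fell less than RPS28B, with 0.85 ± 0.30 (adjusted p = 0.049), a call that was lost without any 1 of the 8 arrays of 0 h to 4 h over the 52 pairs, at adjusted p from 0.051 to 0.23. RPS21 had a smaller but steady shift, with log2 ratios of 0.00 and −0.01 at 0 h and between −0.69 and −0.44 on all 8 later arrays. The ratio of RPS21, RPS22 and RPS9 was called at all 4 times over the 52 pairs, and in the wider table RPS21 missed at 12 h (adjusted p = 0.064).

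Other pairs kept step on the probe sets that were kept. The 4 with the smallest change of ratio over the 4 times were RPS1, RPL2, RPL20 and RPS18. In RPS1, whose probe sets carry no shared mark, RPS1A went from 2040.4 and 2187 at 0 h to 662 and 872 at 0.5 h and RPS1B from 2740.4 and 3085 at 0 h to 974 and 1241 at 0.5 h. The ratio changed by −0.07 ± 0.15, 0.07 ± 0.15, 0.00 ± 0.15 and −0.06 ± 0.15 at the 4 times. In RPL2, RPL20 and RPS18 the kept probe set of 1 gene is marked as shared, and the largest changes were 0.17, −0.21 and 0.23. At 0.5 h the unmarked probe sets of RPL2A, RPL20B and RPS18B changed by −1.62, −1.44 and −1.95. Their kept shared probe sets changed by −1.43, −1.26 and −1.03. For RPS18 the small change of ratio thus holds for the kept probe sets only. How much of the signal of the shared probe sets came from the partner was not tested.

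The shared probe sets could be set against others for 20 genes, each with 1 probe set marked as shared and 1 not marked. At 0.5 h the unmarked probe set showed the deeper change in 13 of 20 genes, with a median of −1.54 against −1.21. The probe sets of a gene were within 0.5 of each other for 13, 17, 19 and 17 of the 20 genes at the 4 times. RPS18B changed by −1.95 on its unmarked probe set at 0.5 h and by −1.03 on the shared one. RPS17B, not called on its shared probe set, changed by −1.81 ± 0.26 (adjusted p = 2.7e-04) on the unmarked one, adjusted over 5498 probe sets.

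In RPL18B the probe sets differed by more than 1 on the log2 scale at each of the 4 times, and RPS17B, with 1.26 at 12 h, was the only other gene with such a difference at any time. The shared probe set, which was kept as the brighter, fell by 1.42 at 0.5 h and was at −0.15 at 4 h and 0.15 at 12 h. The unmarked one had intensities of 159 and 231 at 0 h, 132 and 167 at 0.5 h, 185 and 179.6 at 1 h, then 427 and 448 at 4 h and 607 and 525 at 12 h. Its 4 h and 12 h arrays were all above the earlier 6, with −0.36 ± 0.21 (adjusted p = 0.151) at 0.5 h, 1.19 ± 0.21 (adjusted p = 0.0018) at 4 h and 1.56 ± 0.21 (adjusted p = 3.2e-04) at 12 h. It was dim at 0 h, above 30.8% of probe sets. RPL18B was singled out after its values were seen.

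**Figure D5:**
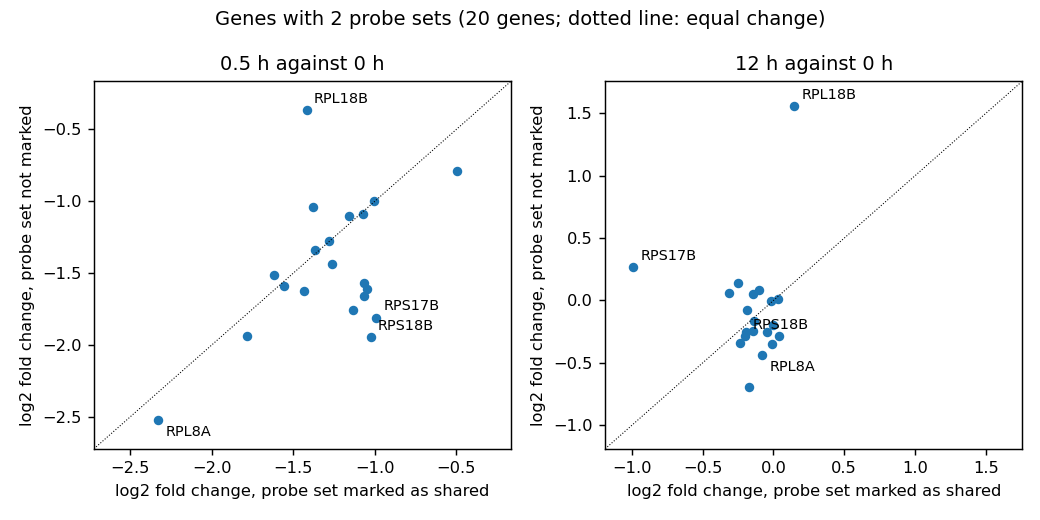
Log2 fold change on the probe set not marked as shared (vertical axis) against that on the probe set marked as shared (horizontal axis) for 20 ribosomal protein genes at 0.5 h and 12 h against 0 h, with a point for each gene and a dotted line at equal change. RPL18B lies above the line at both times, at −0.36 against −1.42 and at 1.56 against 0.15, and RPS17B and RPS18B lie below it at 0.5 h. RPS17B lies above it at 12 h, at 0.27 against −0.99.

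Across the 127 genes, those with a higher mean log2 intensity tended to fall less at 0.5 h by rank, with a Spearman correlation of 0.49 (0.46 over the 102 genes whose probe set is not marked as shared) and a Pearson correlation of 0.22. At 4 h the Spearman value was 0.31 and the Pearson value −0.20, and at 12 h they were 0.08 and −0.31. The points share the 10 arrays, and the mean level includes the arrays of the change, so this is a description. The 18 genes with neither A nor B in their symbol were all called lower at 0.5 h, with a median of −1.17. Of the 100 genes with a partner on the array 97 were called lower, with a median of −1.33, and of all genes 32.7%. RPL3, RPL10 and RPL25 are among the 18, at −1.88, −1.01 and −0.90.

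Some ribosomal protein genes lie next to each other on a chromosome. RPS14B, RPS22A and RPL39 follow one another in the gene table, and changed by −1.60, −2.52 and −1.53 at 0.5 h. RPS16B, RPL13A and RPP1A, another run of 3, changed by −1.96, −2.37 and −0.82. Their paralogs RPL13B and RPS16A, also neighbours, changed by −1.26 and −1.37, and the neighbours RPS19B and RPL18B by −1.28 and −1.42. The values of RPS16A, RPS19B and RPL18B come from shared probe sets. Their unmarked probe sets changed by −1.34, −1.28 and −0.36, and that of RPL18B was not called (adjusted p = 0.151). These runs were picked after their values were seen, and no test was made.

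Many genes that work with the ribosome also fell at 0.5 h. Of 7 dedicated chaperones, which guard single ribosomal proteins until assembly, 6 were called lower at 0.5 h and none higher, with a median of −1.98, where 32.7% of all genes were lower. SYO1, which escorts the 60S proteins of the 5S particle, went from 440.2 and 646 at 0 h to 39.8 and 59.0 at 0.5 h. The change was −3.46 ± 0.26 (adjusted p = 7.8e-06), and RRB1, the chaperone of Rpl3, and TSR2, that of Rps26, changed by −2.90 and −2.17. At 12 h 1 of 7 was lower (22% of all genes), SYO1 at −0.83. Of 9 factors bound to the ribosome or the nascent chain, 7 were lower at 0.5 h (32.7% of all genes) and none higher, with a median of −1.02. SSB1 and SSB2, the Hsp70 chaperones of the nascent chain, both changed by −1.66, SSB1 on a shared probe set, and ASC1, a 40S protein without an RPS name, by −1.58. ASC1 then passed its start, with 3044 and 2779 at 0 h, 911 and 1033 at 0.5 h, 1063 and 808 at 1 h, then 2173 and 1933 at 4 h and 5223 and 4437 at 12 h. It was called higher at 12 h, at 0.73 ± 0.18 (adjusted p = 0.011).

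Among the regulators of ribosomal protein genes, calls went both ways. Of 18 listed 17 were measured, and at 0.5 h 3 were called lower and 7 higher, with a median of 0.07, where 32.7% of all genes were lower and 30.1% higher. IFH1, the coactivator, went from 432 and 545 at 0 h to 151 and 179 at 0.5 h, a change of −1.56 ± 0.20 (adjusted p = 1.2e-04). CRF1, described as a corepressor that competes with Ifh1 for Fhl1, went from 57.7 and 46.2 at 0 h to 469 and 237 at 0.5 h, a change of 2.69 ± 0.31 (adjusted p = 7.7e-05), and FHL1 itself was not called, at 0.11. BCY1, the regulatory subunit of protein kinase A, and TPK2, a catalytic subunit, changed by 3.19 and 2.67. TPK3, another catalytic subunit, was lower, at −0.97 ± 0.18 (adjusted p = 0.0011). SCH9, ABF1, YAK1 and TOR1 were also called higher at 0.5 h, at 0.79, 0.71, 0.68 and 0.44, and KOG1 lower, at −0.49. At 12 h 3 of the 17 were higher and 4 lower (21.4% and 22% of all genes): BCY1, CRF1 and TPK2 at 1.65, 1.29 and 0.96, and IFH1, LST8, TPK3 and TCO89 at −0.70, −0.60, −0.50 and −0.42. LST8 and TCO89 encode members of TOR complexes. RAP1 was not called at 0.5 h, at −0.30.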

How the data were processed

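The authors deposited linear RMA intensities of 5716 probe sets for 10 Affymetrix yeast arrays, 2 at each of 5 times. The authors read the arrays with MAS5 and used the RMA package of BioConductor for background adjustment, normalization and probe set summarization. Versions are not given in the sources used here. RMA normalization sets the arrays to a common distribution, so a change in total mRNA per cell is not seen. For arrays, their number limits the precision.

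The platform annotation gave the gene symbols, and 12 old ones were replaced by those of the R64 assembly. 5498 had 1 symbol and 218 none. The probe set with the highest mean log2 intensity was kept for each gene, which left 5449 genes. Of the 127 ribosomal protein genes, 25 were kept on a probe set that its name marks as shared (ending in _s_at or _x_at).

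log2 intensities were fitted with limma 3.58.1 in R 4.3.3, 5 groups in 1 fit (residual degrees of freedom 5, prior 4.33), and p-values were adjusted with Benjamini-Hochberg over all genes. The same was done for log2 ratios of A over B within each array. Both fits were tested on simulated data. Figures were drawn with matplotlib 3.10.9. The genes, lists, tests and the rule for named genes were chosen with earlier results of these data known. The rule named genes not called at 0.5 h, the largest changes at 0.5, 4 and 12 h, all stalk and ubiquitin fusion genes, the 8 pairs with the largest and 4 with the smallest change of ratio, and up to 3 genes of each other list. Genes named outside it (RPL3, RPL10, RPL25, RPL18B, RPS24A, IFH1, FHL1, RAP1, TPK3, SCH9, ABF1, YAK1, TOR1, KOG1, LST8, TCO89 and the neighbouring genes) were chosen after their values were seen. So were 6 lower calls at 4 h given by name.

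Alternatives were quantile normalization, median centring, the mean of probe sets, an offset of 50, a fold minimum of 2 (for pairs 0.5 on the log2 scale), leaving out the dimmest 20% of genes or the shared probe sets, a trended robust fit, a replicate block, leaving out each array, and, added after seeing the data, the wider pair table and the omission of 3 genes. Protein, promoter and intron sequences were not used here.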

Additional observations from a re-analysis of the deposited data

Results flagged for a closer look

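The change of RPL9B from 0 h differed between 0.5 h and 12 h, which was tested as the contrast of 12 h against 0.5 h in the same fit: the difference was 2.20 ± 0.19 on the log2 scale (adjusted p = 5.8e-05, limma over 5449 genes). It was below 0 h on both arrays of 0.5 h and above it on both arrays of 12 h. RPL9B was called on opposite sides of 0 h at these times, lower at −1.31 and higher at 0.88, which is what singled it out, so the test on the same arrays is no independent evidence. In the same contrast 123 of the 127 ribosomal protein genes were called higher, as were 24.6% of all genes.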

How the results depend on the processing

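Of 2226 values of named genes and pairs under the alternatives other than the fold minimum, which was applied to counts only, none turned its direction while called on either side, 2139 kept their side of the threshold, 58 lost it and 29 gained it, and 29 values that were not called changed sign and are counted as kept. These 58 losses came from leaving out an array. A fold minimum would also end the calls of named genes that changed by less than a factor of 2. The count of ribosomal protein genes called ran from 120 to 124 at 0.5 h, 109 to 123 at 1 h, 2 to 18 at 4 h, 4 to 13 at 12 h and 115 to 122 for 12 h against 0.5 h when 1 array was left out. That of pairs over the 52 pairs ran from 15 to 31, 10 to 26, 2 to 5 and 3 to 13 at the 4 times. With 1 array left at a time, that array was assumed to vary like the other groups. A fold minimum of 2 left 57 genes at 1 h, 3 at 4 h and 3 at 12 h. Quantile normalization gave 13 genes at 12 h and the trended robust fit 3 pairs at 12 h. Without the 3 genes with replicates far apart the counts were 121, 119, 15 and 7. Without shared probe sets 23, 20, 4 and 6 of 49 pairs were called. The cause of these shifts was not tested beyond what the alternative removes. The labels do not say that a replicate number marks a shared culture or day, and the numbers were not treated as pairing the arrays. Deviations from the time means correlated between same-numbered arrays at over 0.1 in 8 of 10 pairs of times, from 0.03 to 0.56, so some structure shared by number is visible in the data. With a replicate block 123, 120, 19, 12 and 124 genes were called, and 28, 24, 5 and 9 pairs. Restricting pairs to a minimum protein identity was not run, because protein sequences were not used here. Dim probe sets (RPL41A, RPS9A and RPS22B at 0 h) limit the precision of their folds.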
